A study of Sus scrofa with 4 samples.

Results

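The miRNAs described here are markers of white blood cells, read in the longissimus dorsi of the pig, a long back muscle. They were taken from the known-miRNA table as every row whose base name, with the arm suffix removed, is miR-142, miR-146a, miR-146b, miR-150, miR-155, miR-223 or miR-342. This gave 7 rows of 271, from 6 of the 7 base names, and miR-223 is not analysed here. The 7 rows are miR-142-5p, miR-142-3p, miR-150, miR-155-5p, miR-342, miR-146a-5p and miR-146b. Each had reads in all 4 libraries, and 7 of 7 passed the filter on low counts.

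The study addresses growth and lipid deposition in muscle and has 1 small RNA library for each of 4 breeds. The indigenous Chinese type comprised the Diannan Small Ear pig and the Tibetan pig, and the introduced type comprised Landrace and Yorkshire, with 2 libraries per type. All came from the same muscle and no treatment is named. Whether 1 animal or a pool went into a library is not in the labels, nor are age, sex or batch, so p-values measure only the spread between these libraries, which may be technical.

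White blood cells carry a set of miRNAs that most other cells express weakly. miR-142 is made throughout the blood lineage and both arms of its hairpin are used. miR-150 is typical of mature lymphocytes and limits the transcription factor MYB, miR-155 is induced when lymphocytes and macrophages are activated, and miR-342 is found in lymphocytes. miR-146a and miR-146b share a seed and are induced by NF-κB, whose upstream signalling proteins TRAF6 and IRAK1 miR-146a represses. In muscle such miRNAs can come from blood in the vessels and from resident immune cells, and miR-146a is also made by endothelium. In bulk tissue fewer cells of a type and less RNA per cell cannot be told apart.

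The RefSeq gene table of assembly Sscrofa11.1 lists 5 of the 7 base names. In it miR-342 lies within the interval of EVL, a protein-coding gene of actin regulation, and miR-142 lies between TSPOAP1 and SUPT4H1. miR-146a is followed by PTTG1, miR-146b is preceded by CUEDC2, and miR-155 is followed by MRPL39. Coordinates are left out, because the sources used here name no build for the counts.

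Reads counted to the table totalled 4500803 in Diannan Small Ear and 3592704 in Tibetan, against 2507082 in Landrace and 5346460 in Yorkshire. The libraries stood apart in a way the types do not explain. Striated muscle miRNAs, which include miR-1, took 17.6% of the Diannan Small Ear counts and 90.4% of the Tibetan counts, and 21.6% of the Landrace and 96.9% of the Yorkshire counts. This list includes miR-486, which is also counted below as erythroid, and without it the shares were 5.83% and 89.9%, against 7.36% and 96.7%. With TMM scaling, which takes the bulk of miRNAs as unchanged, a 2-fold or larger difference was seen for 64.3% of 196 miRNAs in Diannan Small Ear over Tibetan and for 66.8% of 193 in Landrace over Yorkshire. Between breeds of different type it was seen for 8.95% of 190 in Diannan Small Ear over Landrace and for 24.2% of 178 in Tibetan over Yorkshire. Diannan Small Ear thus resembled Landrace and Tibetan resembled Yorkshire. The TMM factors ranged from 0.345 in Yorkshire to 2.21 in Landrace. With 64.3% and 66.8% of miRNAs apart within the types, the premise of TMM is doubtful there, and TMM-scaled levels depend on it. Whether labels were exchanged between libraries cannot be checked here, and each value given by type rests on the labels as they stand. The percentages at least 2-fold different are the background for the marker miRNAs below.

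The 7 marker miRNAs were rare in each library. Together they had 1331 reads in Diannan Small Ear, which is 0.0296% of the counts (95% Wilson interval 0.0280 to 0.0312). They had 1300 reads in Tibetan, or 0.0362% (0.0343 to 0.0382). Landrace had 1133 reads, or 0.0452% (0.0426 to 0.0479), and Yorkshire had 486, or 0.00909% (0.00832 to 0.00993). The Yorkshire share was the lowest of the 4, and that library also had the highest share of striated muscle reads. CPM are counts scaled to a common library total, and for TMM-scaled CPM each total is multiplied by its TMM factor. TMM-scaled CPM are therefore not shares of the reads in a library. After TMM scaling the summed level was 222 CPM in Diannan Small Ear and 367 in Tibetan, against 204 in Landrace and 264 in Yorkshire. Yorkshire was then second highest. The intervals given throughout hold for counting error alone, because reads that carry no molecular identifier are not independent molecules. Overlap of 2 intervals does not show that the values are equal. By type the sum of TMM-scaled levels averaged 295 ± 103 CPM for the indigenous breeds against 234 ± 42.1 CPM for the introduced ones (SD, n = 2 each), and the types overlapped. A two-sided exact permutation test gave p = 0.667, and 2 libraries against 2 allow no p below 0.333.

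miR-142-5p, the commoner miR-142 arm in each library, had 209 reads in Diannan Small Ear and 128 in Tibetan, against 140 in Landrace and 69 in Yorkshire. Its TMM-scaled level was 34.9 CPM in Diannan Small Ear (95% Poisson interval 30.3 to 39.9) and 36.2 in Tibetan (30.2 to 43.0), against 25.2 in Landrace (21.2 to 29.8) and 37.5 in Yorkshire (29.1 to 47.4). Landrace was the lowest, its interval overlapping only that of Yorkshire, and the other 3 libraries had intervals that overlapped each other. The level of miR-142-5p in Yorkshire was the highest of the 4 after TMM scaling and the lowest, at 12.9 CPM, as a plain share of the total.

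miR-142-3p, the other arm of that hairpin, had 9 reads in Diannan Small Ear and 86 in Tibetan, against 11 in Landrace and 35 in Yorkshire. On the TMM scale these were 1.50 CPM (0.686 to 2.85) and 24.3 CPM (19.4 to 30.0) in the indigenous libraries, and 1.98 CPM (0.990 to 3.55) and 19.0 CPM (13.2 to 26.4) in the introduced ones. Tibetan and Yorkshire were high and Diannan Small Ear and Landrace low, with no overlap between these intervals, and each type held 1 high and 1 low library.

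miR-150, the marker of mature lymphocytes, had 157 reads in Diannan Small Ear and 113 in Tibetan, against 110 in Landrace and 52 in Yorkshire. Its TMM-scaled level was 26.2 CPM in Diannan Small Ear (22.3 to 30.6) and 31.9 in Tibetan (26.3 to 38.4), against 19.8 in Landrace (16.3 to 23.9) and 28.2 in Yorkshire (21.1 to 37.0). Only the Tibetan and Landrace intervals did not overlap, and the order of the libraries differed from that of miR-142-5p only at the top.

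miR-155-5p, the activation-induced miRNA, was the rarest by total reads after miR-142-3p in Diannan Small Ear and Landrace, and the rarest of all 7 in Tibetan and Yorkshire. It had 41 reads in Diannan Small Ear and 16 in Tibetan, against 38 in Landrace and 6 in Yorkshire. Its TMM-scaled levels were 6.84 CPM (4.91 to 9.28), 4.52 CPM (2.59 to 7.34), 6.85 CPM (4.85 to 9.40) and 3.26 CPM (1.20 to 7.09) in the same order of breeds. Every pair of these intervals overlapped on that scale. The counting interval of the ratio included 1 in Diannan Small Ear over Tibetan (0.830 to 2.89) and Landrace over Yorkshire (0.882 to 6.09). The same held in Diannan Small Ear over Landrace (0.626 to 1.59) and Tibetan over Yorkshire (0.516 to 4.33).

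miR-342, which is found in lymphocytes, had 85 reads in Diannan Small Ear and 102 in Tibetan, against 71 in Landrace and 31 in Yorkshire. Its TMM-scaled level was 14.2 CPM in Diannan Small Ear (11.3 to 17.5) and 28.8 in Tibetan (23.5 to 35.0), against 12.8 in Landrace (9.998 to 16.1) and 16.8 in Yorkshire (11.4 to 23.9). Tibetan was the highest, and its interval overlapped only that of Yorkshire.

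miR-146a-5p, the NF-κB-induced miRNA, had the most reads of the 7 in each library. It had 744 reads in Diannan Small Ear and 788 in Tibetan, against 642 in Landrace and 280 in Yorkshire. Its TMM-scaled level was 124 CPM in Diannan Small Ear (115 to 133) and 223 in Tibetan (207 to 239), against 116 in Landrace (107 to 125) and 152 in Yorkshire (135 to 171). The order was Tibetan, Yorkshire, Diannan Small Ear and Landrace, and only the last 2 had overlapping intervals.

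miR-146b had 86 reads in Diannan Small Ear and 67 in Tibetan, against 121 in Landrace and 13 in Yorkshire. Its TMM-scaled level was 14.3 CPM in Diannan Small Ear (11.5 to 17.7) and 18.9 in Tibetan (14.7 to 24.1), against 21.8 in Landrace (18.1 to 26.1) and 7.06 in Yorkshire (3.76 to 12.1). Yorkshire was the lowest here, although it was not the lowest for miR-146a-5p. The mature sequences of miR-146a and miR-146b are nearly the same, so reads may have been shared between these rows and their separate values are uncertain.

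**Figure D1:**
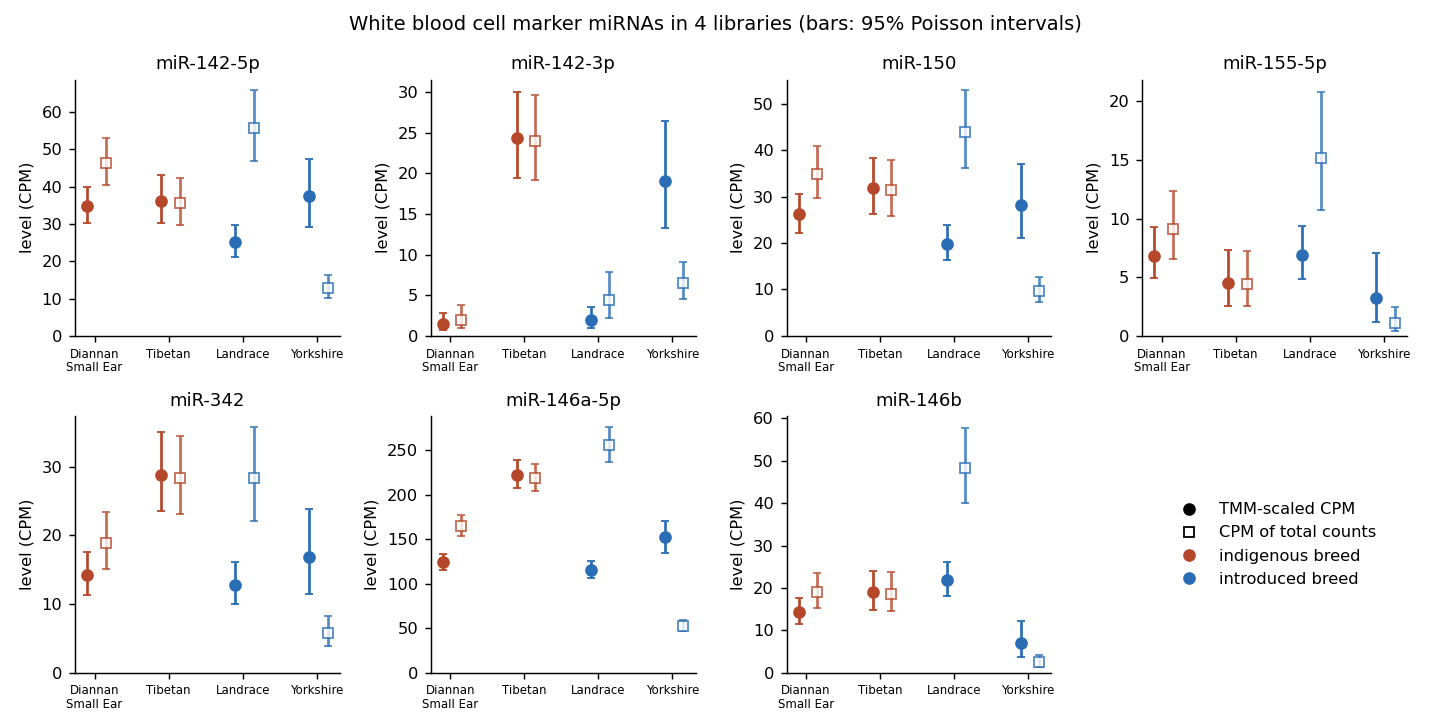
Level of each marker miRNA (CPM, vertical axis from 0) in the 4 libraries, with TMM-scaled values as filled circles, values as CPM of total counts as open squares and 95% Poisson intervals as bars. miR-142-3p has 9 and 86 reads in the indigenous libraries and 11 and 35 in the introduced ones, while miR-142-5p and miR-150 lie close together on the TMM scale.

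On the TMM scale 6 of the 7 varied less over the libraries than the median miRNA. The highest level over the lowest was 1.48 for miR-142-5p, 1.61 for miR-150, 1.92 for miR-146a-5p, 2.10 for miR-155-5p, 2.25 for miR-342 and 3.09 for miR-146b. miR-142-3p was the exception at 16.2. The median of this range over all 197 tested miRNAs was 4.60, with a count of 0 set to 3, and 8 of them had a smaller range than miR-142-5p and 12 a smaller one than miR-150. As CPM of total counts the range was 4.33 for miR-142-5p and 4.51 for miR-150, and 38 and 42 miRNAs had a smaller one. The median was then 11.4, and miR-146a-5p at 4.89 and miR-342 at 4.897 also lay below it. Above it lay miR-146b at 19.9, miR-155-5p at 13.5 and miR-142-3p at 11.97. The low spread of miR-146b and miR-155-5p was thus lost with total counts. Ranges with RLE and the upper quartile were not set against a median. Landrace over Yorkshire was 3.58 for miR-146b and 2.43 for miR-155-5p with RLE, and 4.26 and 2.90 with the upper quartile.

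**Figure D2:**
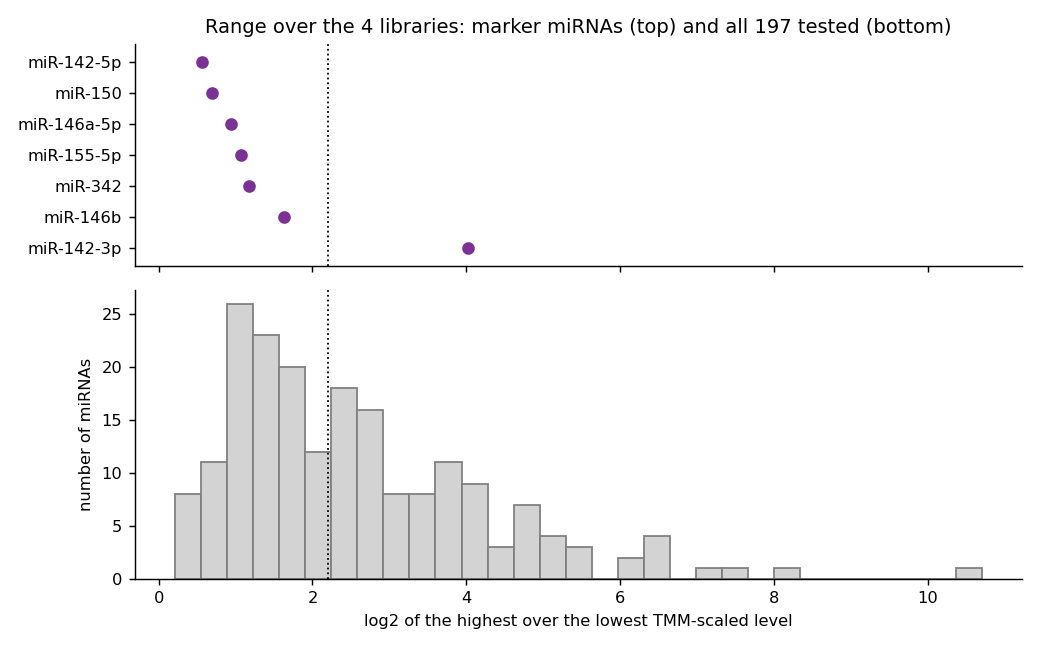
Log2 of the highest over the lowest TMM-scaled level in the 4 libraries (horizontal axis), for the 7 marker miRNAs in the upper panel and as a histogram of all 197 tested miRNAs in the lower panel. The dotted line is the median of all, a range of 4.60, and miR-142-3p at 16.2 is the marker to the right of it.

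Ratios within a library do not depend on the scaling between libraries and show the make-up of the marker reads. miR-146a-5p held 55.9% of the reads of the 7 miRNAs in Diannan Small Ear and 60.6% in Tibetan, against 56.7% in Landrace and 57.6% in Yorkshire. The miRNAs listed as lymphoid, miR-150, miR-155-5p and miR-342, together held 21.3% in Diannan Small Ear and 17.8% in Tibetan, against 19.3% in Landrace and 18.3% in Yorkshire. Because miR-155 is also induced in macrophages and miR-223 is not analysed, these are not shares of lymphoid cells. The miR-142 arms together held 16.4% and 16.5% in the indigenous libraries and 13.3% and 21.4% in the introduced ones. The make-up by role thus differed by less than 10 percentage points between libraries. Single miRNAs with small shares varied more in fold terms. miR-146b held 6.46% in Diannan Small Ear and 5.15% in Tibetan, against 10.7% in Landrace and 2.67% in Yorkshire. miR-155-5p held 3.08% and 1.23%, against 3.35% and 1.23%. Relative to miR-142-5p, the highest over the lowest ratio was 4.59 for miR-146b and 3.12 for miR-155-5p.

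miR-150 kept a near-constant ratio to miR-142-5p. It was 0.751 in Diannan Small Ear (95% exact binomial interval 0.607 to 0.928) and 0.883 in Tibetan (0.679 to 1.15), against 0.786 in Landrace (0.606 to 1.02) and 0.754 in Yorkshire (0.515 to 1.10), a range of 1.18-fold that lies within counting error. miR-146a-5p to miR-142-5p was 3.56 in Diannan Small Ear (3.05 to 4.17) and 6.16 in Tibetan (5.10 to 7.48), against 4.59 in Landrace (3.81 to 5.55) and 4.06 in Yorkshire (3.11 to 5.36). With miR-142-5p as the base, Tibetan lay above Diannan Small Ear and the introduced breeds were in between. miR-342 to miR-142-5p was 0.407 in Diannan Small Ear (0.312 to 0.526) and 0.797 in Tibetan (0.608 to 1.04), against 0.507 in Landrace (0.376 to 0.679) and 0.449 in Yorkshire (0.284 to 0.696). Its highest value was again in Tibetan, where it did not overlap Diannan Small Ear.

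These orders changed with the base, and miR-142-3p makes up more of the sum of both arms in Tibetan and Yorkshire than in the other libraries. Relative to both arms, miR-146a-5p was 3.41 in Diannan Small Ear (2.93 to 3.99) and 3.68 in Tibetan (3.16 to 4.30), against 4.25 in Landrace (3.56 to 5.11) and 2.69 in Yorkshire (2.14 to 3.41). The introduced breeds then held the highest and the lowest value, and the intervals of the indigenous breeds overlapped. miR-342 was 0.390 in Diannan Small Ear (0.300 to 0.503) and 0.477 in Tibetan (0.373 to 0.606), against 0.470 in Landrace (0.350 to 0.627) and 0.298 in Yorkshire (0.193 to 0.449), with every pair of intervals overlapping. miR-150 was 0.720 in Diannan Small Ear (0.583 to 0.888) and 0.528 in Tibetan (0.417 to 0.666), against 0.728 in Landrace (0.565 to 0.938) and 0.50 in Yorkshire (0.351 to 0.704). Its range widened to 1.46-fold, and every pair of intervals still overlapped.

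Among the miRNAs listed as lymphoid, the ratio of miR-155-5p to miR-150 was 0.261 in Diannan Small Ear (0.180 to 0.370) and 0.142 in Tibetan (0.0783 to 0.240), against 0.345 in Landrace (0.232 to 0.504) and 0.115 in Yorkshire (0.0405 to 0.269). Tibetan and Yorkshire had the lower values. Every pair of intervals overlapped, and these ratios were not compared directly between libraries. The ratio of miR-342 to miR-150 was 0.541 in Diannan Small Ear (0.411 to 0.709) and 0.903 in Tibetan (0.684 to 1.19), against 0.645 in Landrace (0.472 to 0.878) and 0.596 in Yorkshire (0.369 to 0.948). Tibetan had the highest value, and here too every pair of intervals overlapped, with no direct comparison made. Between the NF-κB-induced pair, the ratio of miR-146b to miR-146a-5p was 0.116 in Diannan Small Ear (0.0914 to 0.145) and 0.0850 in Tibetan (0.0652 to 0.109), against 0.188 in Landrace (0.154 to 0.229) and 0.0464 in Yorkshire (0.0244 to 0.0807). Landrace lay above the other 3 libraries, and the introduced breeds thus held both the highest and the lowest value.

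**Figure D3:**
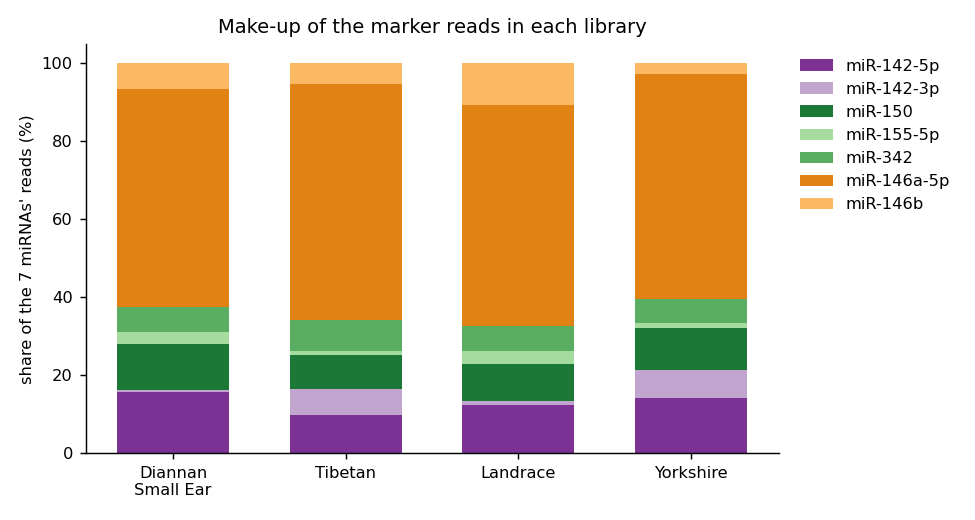
Share of the reads of the 7 marker miRNAs (%, vertical axis) held by each miRNA in the 4 libraries, as stacked bars. miR-146a-5p holds between 55.9% and 60.6% in each library, and the pale miR-142-3p segment is visible in Tibetan (6.62%) and Yorkshire (7.20%) but thin in Diannan Small Ear (0.676%) and Landrace (0.971%).

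The arms of miR-142 separated the libraries across the types. Of the reads of both arms, miR-142-5p took 95.9% in Diannan Small Ear (95% Wilson interval 92.3 to 97.8) and 59.8% in Tibetan (53.1 to 66.2). In Landrace it took 92.7% (87.4 to 95.9) and in Yorkshire 66.3% (56.8 to 74.7). The -5p over -3p ratio was 15.5-fold higher in Diannan Small Ear than in Tibetan (95% exact interval 7.46 to 36.3) and 6.41-fold higher in Landrace than in Yorkshire (2.96 to 14.9). Between types, the ratio of Diannan Small Ear over Landrace was 1.82 (0.667 to 5.11) and that of Tibetan over Yorkshire 0.756 (0.447 to 1.26), both with intervals that include 1. Since each breed had 1 library, none of these differences between breeds, here or below, has a replicate check.

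Such a shift was common among hairpins with both arms listed. Hairpins with at least 10 reads over both arms in each library numbered 44. Of these, 77.3% had an arm ratio at least 2-fold apart in Diannan Small Ear over Tibetan and 72.7% in Landrace over Yorkshire. For each of the comparisons between types it was 20.5% (0.5 reads added to each arm). Since 1 arm could have 0 or few reads, some of these hairpins were counted through the added 0.5 or single reads. Among them was miR-365, with 0 -5p reads in both Diannan Small Ear and Tibetan. The -5p over -3p ratio was at least 2-fold higher both in Diannan Small Ear than in Tibetan and in Landrace than in Yorkshire for 12 hairpins (27.3%), miR-142 among them, and at least 2-fold lower in both for 16. miR-142 ranked 12th of 44 by the size of the change between Diannan Small Ear and Tibetan and 15th between Landrace and Yorkshire. The endothelial miR-126, named after its values were seen, had -5p shares of 94.2% in Diannan Small Ear and 61.7% in Tibetan, against 93.8% in Landrace and 68.2% in Yorkshire. Each of these lay inside the interval of miR-142 in that library. The part of the libraries' overall difference in the arm shares of miR-142 was not tested.

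**Figure D4:**
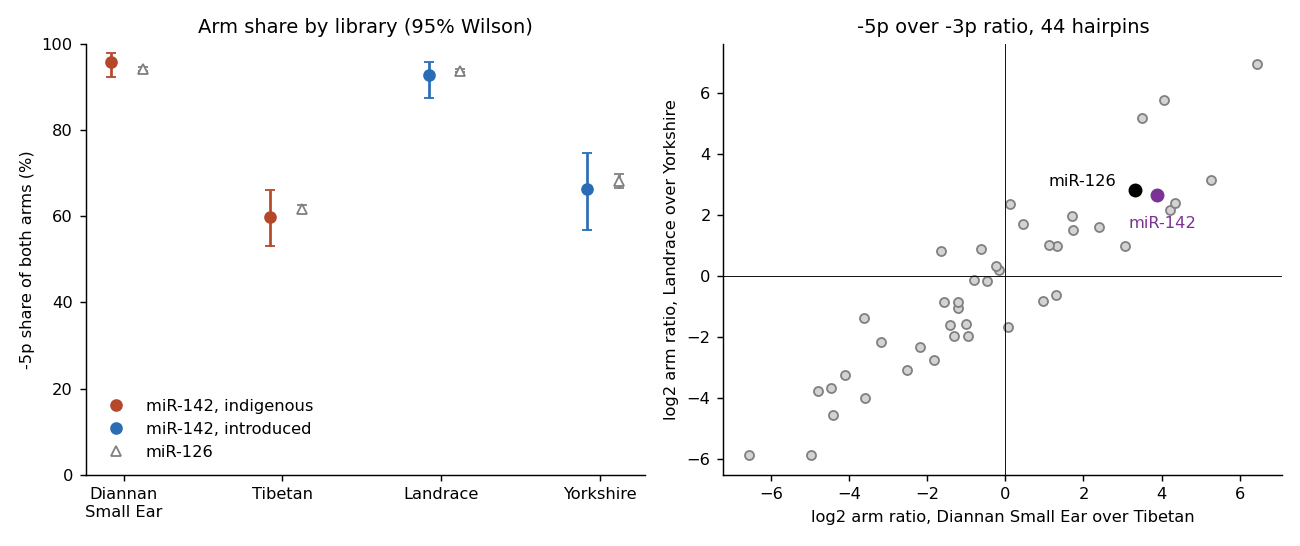
Left, share of -5p reads among both arms (%) of miR-142 (circles) and miR-126 (triangles) in each library with 95% Wilson intervals. Right, log2 change of the -5p over -3p ratio in Diannan Small Ear over Tibetan (horizontal) and Landrace over Yorkshire (vertical) for 44 hairpins, with miR-142 in the upper right group.

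Between the types, 0 of the 7 marker miRNAs passed the edgeR quasi-likelihood test at an adjusted p of 0.05, as did 0% of the 197 miRNAs tested. The edgeR adjusted p was 0.996 for each of the 7, 0 of 7 had an unadjusted p under 0.05, and 1 of 197 did. DESeq2 and limma-voom also called 0 of 7, with 0 of 7 at an unadjusted p under 0.05. The estimates were higher in the indigenous breeds for 7 of 7 with TMM, 6 of 7 with RLE or upper-quartile and 5 of 7 with total-count scaling, and with TMM each was smaller than its standard error. Their median log2 fold change was 0.28 against 0.12 for all miRNAs tested, and 0.15 against -0.017 with RLE. On the TMM scale miR-146a-5p averaged 173 ± 69.8 CPM for the indigenous against 134 ± 25.6 CPM for the introduced breeds (SD, n = 2 each), and its log2 fold change was 0.37 ± 0.86 (SE). miR-342 averaged 21.5 ± 10.4 against 14.8 ± 2.85 CPM (0.54 ± 0.93), and miR-150 29.1 ± 4.07 against 24.0 ± 5.94 CPM (0.28 ± 0.90), in the same order of types. The log2 fold change was 0.18 ± 0.90 for miR-142-5p, 0.32 ± 1.74 for miR-142-3p, 0.15 ± 0.82 for miR-155-5p and 0.19 ± 1.00 for miR-146b. The libraries of the types overlapped for 7 of 7, while 13.7% of the 197 miRNAs had types that did not overlap.

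The direction of several of these estimates rested on 1 library. Without Tibetan the log2 fold change was -2.75 for miR-142-3p, -0.11 for miR-146a-5p, -0.057 for miR-342 and -0.018 for miR-146b, and without Landrace it was -0.42 for miR-142-3p. Without Yorkshire it was -0.52 for miR-146b and -0.38 for miR-155-5p, and without Diannan Small Ear it was -0.31 for miR-155-5p. The sign for miR-146b turned with RLE, upper-quartile and total-count scaling, and that for miR-155-5p with total counts. The estimates of miR-142-5p and miR-150 stayed above 0 in each of these fits. In the authors' deposited table none of the 7 had an FDR under 0.05, against 83 of 271 miRNAs (30.6%), and the lowest was 0.119 for miR-146a-5p at the authors' fold of 1.25.

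Between the indigenous breeds, 2 of 7 markers differed at least 2-fold on the TMM scale, against the background of 64.3%. In Diannan Small Ear miR-142-3p was 16.2-fold (95% counting interval 8.14 to 36.6) and miR-342 2.03-fold (1.51 to 2.74) below Tibetan. For miR-342 the difference fell short of 2-fold under the other scalings, at 1.76-fold with RLE, 1.40-fold with the upper quartile and 1.50-fold with total counts. miR-155-5p was instead 2.20-fold higher in Diannan Small Ear (1.21 to 4.201) with the upper quartile and 2.05-fold higher (1.12 to 3.90) with total counts, against 1.51-fold (0.830 to 2.89) with TMM. With total counts 2 of 7 were at least 2-fold different, miR-142-3p lower and miR-155-5p higher, against 70.9% of all. miR-146a-5p was 1.79-fold lower (1.62 to 1.99), and the ratio was 0.963 (0.770 to 1.21) for miR-142-5p and 0.820 (0.640 to 1.05) for miR-150. Between the introduced breeds 3 of 7 differed at least 2-fold, against 66.8%. miR-142-3p was 9.58-fold lower in Landrace than in Yorkshire (4.76 to 20.9), miR-146b 3.09-fold higher (1.74 to 5.97) and miR-155-5p 2.10-fold higher (0.882 to 6.09), the last with an interval that includes 1. With total counts every ratio of Landrace over Yorkshire is 6.42 times larger, and 6 of 7 were then at least 2-fold higher in Landrace, against 73.1% of all. miR-142-3p was the one left, at 0.670 (0.307 to 1.35).

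Across the types, 0 of 7 reached 2-fold in Diannan Small Ear over Landrace, against 8.95%, and 1 of 7 did in Tibetan over Yorkshire, against 24.2%. The 1 was miR-146b, 2.68-fold higher in Tibetan (1.47 to 5.30). miR-142-5p was 1.38-fold (1.11 to 1.72) and miR-150 1.32-fold higher (1.03 to 1.70) in Diannan Small Ear than in Landrace. In Tibetan over Yorkshire the ratio was 0.966 (0.715 to 1.31) for miR-142-5p and 1.13 (0.808 to 1.60) for miR-150. Total counts multiply each ratio of Tibetan over Yorkshire by 2.86, and then 7 of 7 were at least 2-fold higher in Tibetan, against 81.5%. For Diannan Small Ear over Landrace the factor is 0.602, and 2 of 7, miR-142-3p and miR-146b, were then at least 2-fold lower in Diannan Small Ear, against 30.5%.

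**Figure D5:**
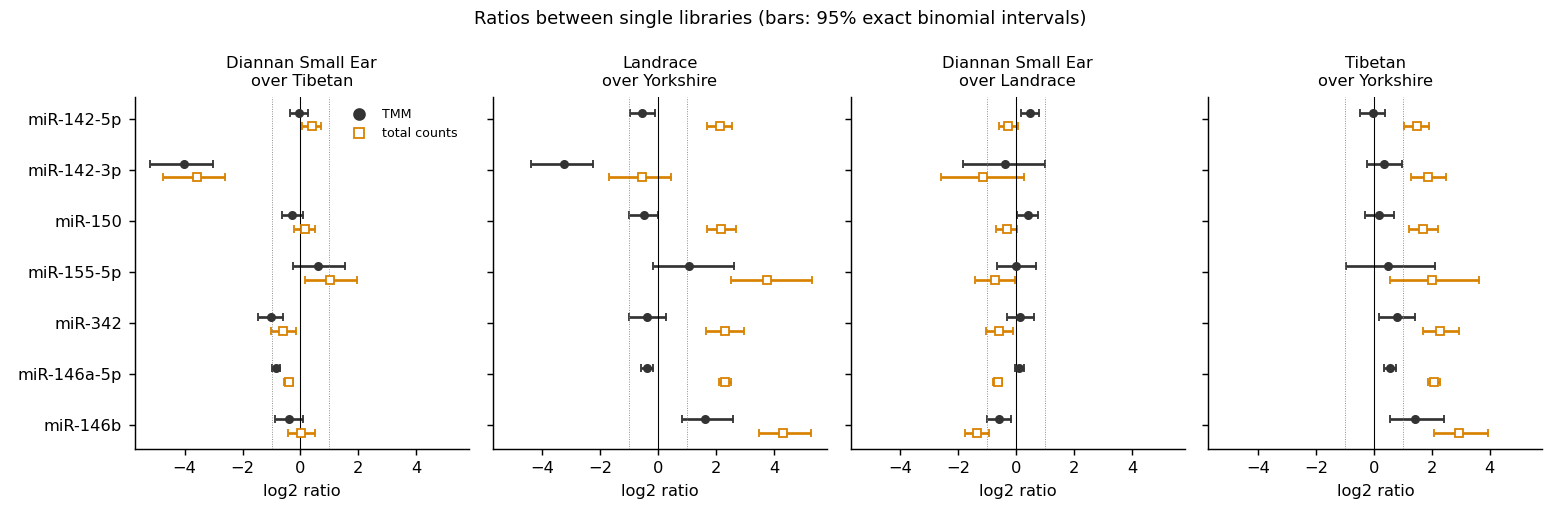
Log2 ratio of each marker miRNA between single libraries in 4 comparisons (panels), with TMM-scaled counts as filled circles and total counts as open squares, and 95% exact binomial intervals as bars. Dotted lines mark 2-fold. With TMM the markers other than miR-142-3p and miR-146b lie near or within 2-fold, and with total counts 7 of 7 lie above 2-fold in Tibetan over Yorkshire.

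The miRNAs with the most similar pattern over the 4 libraries were found by the root mean square difference of centred log2 levels among the 138 miRNAs that averaged 10 CPM or more. A change of scaling is common to any 2 miRNAs and cancels in this measure, apart from the prior count. miR-142-5p was nearest to miR-150 (0.093 on the log2 scale), followed by miR-30e-5p (0.10) and miR-148a-3p (0.14). miR-150 was nearest to miR-30e-5p (0.087), miR-142-5p and miR-30c-5p (0.10). miR-146a-5p and miR-342 were each other's nearest (0.085), and for both the next was miR-214 (0.091 and 0.11), a miRNA of stromal cells. The third was miR-140-3p for miR-146a-5p (0.11) and miR-139-5p for miR-342 (0.14). miR-146b was nearest to miR-532-5p (0.27), miR-143-3p of smooth muscle (0.27) and the endothelial miR-126-5p (0.32), at greater distances.

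The pattern of miR-142-3p was far from those of the other markers. Its nearest were miR-133a-5p, the rarer arm of a muscle miRNA (0.12), miR-450a (0.19) and miR-450c-5p (0.19). Its own hairpin partner miR-142-5p ranked 63rd, at 1.54, and the nearest marker, miR-342, ranked 53rd, at 1.33. miR-133a-5p had 301 reads in Diannan Small Ear and 2188 in Tibetan, against 308 in Landrace and 1039 in Yorkshire. miR-155-5p, with a mean under 10 CPM, was left out of this comparison.

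Markers of other cells in the tissue gave a further view of the same reads. The ratio of the 7 markers' reads to those of miR-451, which is typical of red blood cells, was 3.48 in Diannan Small Ear (3.11 to 3.91) and 1.57 in Tibetan (1.44 to 1.72), against 1.85 in Landrace (1.67 to 2.04) and 2.83 in Yorkshire (2.37 to 3.38). Each type held 1 library with a higher and 1 with a lower ratio. The order of the libraries depends on the erythroid miRNA chosen. miR-486 had 530497 reads in Diannan Small Ear and 20567 in Tibetan, against 356992 in Landrace and 10670 in Yorkshire. Relative to miR-486, Tibetan would lie above Diannan Small Ear. miR-144 was, like miR-451, highest in Tibetan and lowest in Diannan Small Ear (log2 TMM-scaled CPM 7.09 and 2.05). Relative to both arms of the endothelial miR-126, the ratio was 0.0884 in Diannan Small Ear (0.0835 to 0.0935) and 0.122 in Tibetan (0.115 to 0.129), against 0.0703 in Landrace (0.0661 to 0.0747) and 0.145 in Yorkshire (0.132 to 0.160). Tibetan and Yorkshire were the higher ones here. Relative to the stromal miR-214, the ratio was 21.1 in Diannan Small Ear (16.4 to 27.7) and 16.7 in Tibetan (13.3 to 21.2), against 19.9 in Landrace (15.2 to 26.4) and 17.4 in Yorkshire (11.9 to 26.4). Every pair of these intervals overlapped, with 28 to 78 reads of miR-214 per library. In pattern miR-214 ranked 2nd nearest to miR-146a-5p, which held most of the marker reads. An even ratio to miR-214 follows from that likeness. More abundant stromal miRNAs were less even beside the markers. miR-199a-3p had 1312 reads in Diannan Small Ear and 2696 in Tibetan, against 1550 in Landrace and 970 in Yorkshire. miR-143-3p had 64503 and 51500 reads, against 72185 and 13641. The part of blood left in the vessels in the marker levels was not tested.

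On the TMM scale, other miRNAs with roles in immune cells were even over the libraries in some cases and uneven in others. Which cells of the muscle they came from was not tested. Of 10 tested miRNAs of lymphocyte development 0 passed the test between types in either direction, and 8 estimates were above 0 with TMM, 7 with RLE and 6 with total-count scaling (median log2 fold change 0.33 with TMM). Their most abundant member miR-181a, which acts in T cell development, measured 7605 CPM in Diannan Small Ear and 651 in Tibetan, against 5510 in Landrace and 540 in Yorkshire (TMM-scaled). miR-92a of the miR-17-92 cluster measured 915 and 1102 CPM in the indigenous libraries and 809 and 878 CPM in the introduced ones. Of 4 tested miRNAs of inflammation and the NF-κB response 0 passed, and 2 estimates were above and 2 below 0 under each of these scalings (median -0.11 with TMM). miR-21, induced in inflammation and in many other states, measured 603 CPM in Diannan Small Ear and 7970 in Tibetan, against 864 in Landrace and 10580 in Yorkshire. miR-125b measured 395 and 559 CPM in the indigenous libraries and 358 and 437 CPM in the introduced ones. miR-181a and miR-21 thus divided the libraries across the types in opposite directions. miR-92a and miR-125b each had similar TMM-scaled levels in the 4 libraries. That evenness holds for the TMM scale only. Yorkshire, the library with the most counts, had the fewest reads of both. These were 1618 for miR-92a, against 5484 in Diannan Small Ear, and 804 for miR-125b, against 2367.

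In the marker lists of other cells 0 miRNAs passed between the types as well. Of the erythroid list 4 of 6 tested estimates were above 0 with TMM and 3 with total counts (miR-486 0.43 ± 2.09 and miR-451 0.54 ± 1.02, log2 fold change ± SE), of the endothelial list 2 of 2 and 1 (miR-126-5p 0.091 ± 0.96 and miR-126-3p 0.78 ± 1.34) and of stroma and smooth muscle 8 of 8 and 7 (miR-143-3p 0.31 ± 1.14 and miR-199a-3p 0.28 ± 1.03). Of striated muscle 3 of 9 were above 0 with TMM and 5 with total counts, with miR-1 at -1.66 ± 4.15, and the liver miRNA miR-122 was at -1.79 ± 0.91. The miR-122 estimate rested mainly on Landrace, with 78 reads, against 16 in Diannan Small Ear, 10 in Tibetan and 9 in Yorkshire.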

How the data were processed

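Total RNA of each muscle sample went into a Balancer small RNA kit and was sequenced on an Illumina HiSeq, per the labels. The table deposited by the authors holds read counts per miRNA and library, per the file headers, with aligner, miRNA database and genome build not given in the sources used here. It also holds the authors' CPM values, which equalled count over column total within 4.2e-05. The deposited mean signal per type, the fold (ratio of these means) and the p-value and FDR columns are the authors' own, per the file headers, and were used only where named.

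Counts as deposited were tested with the two-sided quasi-likelihood test of edgeR 4.0.16 on the 197 miRNAs that filterByExpr retained, scaled by TMM, with adjustment after Benjamini and Hochberg over all 197 and a threshold of 0.05. There were 2 residual degrees of freedom and the biological coefficient of variation was 98.6%. Standard errors are the absolute log2 fold change over the square root of F. The code was tested on simulated data. Recovery was required only at a spread between libraries well below that of these data, so it does not show power here. Single libraries were compared with no test, for miRNAs with at least 10 reads in 1 of the 2. A count of 0 allows up to 3 counts, or 0.561 to 1.20 CPM. Intervals are at 95% (SciPy 1.17.1).

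All rows of the 7 base names are named, with the 3 nearest miRNAs to each and the 2 most abundant members of every other list. The members and lists were chosen with earlier results of these data known. The planned ratio of lymphoid markers to miR-223 is not given, since miR-223 is not analysed here. Alternatives were scaling by RLE, by the upper quartile or by total counts, testing with no filter or with one of 50 counts in 2 libraries, DESeq2 1.42.0, limma-voom (limma 3.58.1), a robust fit, a term for 2 pairs of like libraries (Landrace and Diannan Small Ear, Yorkshire and Tibetan), removal of the 5 most abundant miRNAs, and leaving out 1 library at a time.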

Additional observations from a re-analysis of the deposited data

How the results depend on the processing

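The count of marker miRNAs called between the types was 0 under each alternative run, and with 2 libraries per type this says little about stability. Over all miRNAs the count was 1 with the replicate block and 0 otherwise. That block pairs Landrace with Diannan Small Ear and Yorkshire with Tibetan by their replicate number within the type. The pairing coincides with the resemblance of the libraries and is not stated by the labels. The log2 fold change between types turned for miR-146b with RLE (-0.0065), upper-quartile (-0.0030) and total-count scaling (-0.42), with DESeq2 (-0.0069) and without the 5 most abundant miRNAs (-0.063), and for miR-155-5p with total counts (-0.25) and without the 5 (-0.020). With 1 library left out it lay between -2.75 and 2.55 for miR-142-3p, 0.081 and 0.37 for miR-142-5p, -0.11 and 0.62 for miR-146a-5p, -0.52 and 1.39 for miR-146b, 0.13 and 0.43 for miR-150, -0.38 and 0.96 for miR-155-5p, and -0.057 and 0.84 for miR-342. In these fits the lone library of a type is assumed to vary like the pair of the other type. The filter of 50 counts in 2 libraries left out miR-142-3p and miR-155-5p, so 5 of the 7 were tested there.

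Members at least 2-fold different numbered 1 with RLE scaling in Diannan Small Ear over Tibetan (2 with the upper quartile or total counts, miR-155-5p in place of miR-342), and with total counts 6 in Landrace over Yorkshire, 2 in Diannan Small Ear over Landrace and 7 in Tibetan over Yorkshire. The share of marker reads without the 5 most abundant miRNAs was 0.166% in Diannan Small Ear and 0.303% in Tibetan, against 0.156% in Landrace and 0.164% in Yorkshire, and without striated muscle miRNAs, miR-486 included, 0.0359%, 0.378%, 0.0576% and 0.289% in the same order. Of 84 ratios between single libraries under another scaling, 52 stayed inside their counting interval and 32 left it. Of the 18 that were at least 2-fold with TMM 0 changed direction, and of the 66 that were smaller 19 did. With total counts 5 of these became at least 2-fold the other way: Landrace over Yorkshire was then 4.33 for miR-142-5p, 4.89 for miR-146a-5p, 4.51 for miR-150 and 4.88 for miR-342, and Tibetan over Yorkshire was 2.76 for miR-142-5p. Relative to both miR-142 arms in place of miR-142-5p, the highest over the lowest ratio in the 4 libraries was 1.46 for miR-150 (1.18 with miR-142-5p), 1.58 for miR-146a-5p (1.73) and 6.41 for miR-146b (4.59). The arm shares of miR-142 from the deposited CPM equalled those from counts. Depth limited miR-142-3p, with 9 reads in Diannan Small Ear and 11 in Landrace, and miR-155-5p, with 16 in Tibetan and 6 in Yorkshire.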
